A study of Mus musculus with 28 samples.

Results

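Distal H3K27ac peaks were the stretches of acetylated chromatin in NIH/3T3 Tet-On 3G cells that lay away from genes' ends and outside the H3K4me3 peaks. The members were chosen by the positions of the H3K27ac and H3K4me3 peaks and of gene ends: a peak of the H3K27ac list was a member if no H3K4me3 peak touched it by 1 bp or more and if it lay more than 2 kb from both ends of every gene locus in the expression tables. The rule kept 10763 of 26629 H3K27ac peaks (40.4%). H3K4me3 peaks overlapped 14861 of the others, of which 4470 also lay more than 2 kb from gene ends, and 1005 had no H3K4me3 overlap but lay within 2 kb of a gene end. All coordinates are mm9.

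Acetylation of histone H3 at lysine 27 marks active promoters and active enhancers, and trimethylation of lysine 4 marks promoters, so acetylated sites without that methylation are commonly used as candidate enhancers. The variant H3.3 can replace the common forms of H3 in chromatin at any time of the cell cycle, also at enhancers, where nucleosomes turn over quickly. NuRD is a complex that joins a nucleosome remodeller (CHD4) to histone deacetylases (HDAC1 and HDAC2), with RBBP4, MTA1 and MBD2 or MBD3 as scaffold and DNA- or histone-binding subunits. RBBP4 also belongs to other chromatin complexes, and nothing measured here assigns a peak in the list to a target gene.

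The study followed how loss of H3.3 bears on NuRD binding and on expression in NIH/3T3 Tet-On 3G cells, a mouse embryonic fibroblast line with a doxycycline-dependent activator. Chromatin immunoprecipitation with sequencing (ChIP-seq) of H3K27ac, H3K4me3, H3K9ac and 6 NuRD subunits used unmodified cells, with 1 library each. HA-tagged H3.3 was precipitated in 2 replicates from cells that carried a FLAG/HA-H3.3 construct and were cultured with aphidicolin, which blocks DNA replication, and doxycycline. A sequential precipitation took FLAG-tagged H3.3 and then RBBP4 from cells with the same kind of construct and doxycycline. MTA1 and RBBP4 were each precipitated once from H3.3 knockdown cells (OFP-H3.3A and GFP-H3.3B constructs) and once from control cells (OFP-Luciferase and GFP-Luciferase constructs). RNA came from 3 knockdown clones and 2 control clones with these constructs, all labelled as FLAG/HA-H3.3 cells given doxycycline, so a tagged H3.3 may be present in both groups. Each RNA sample is 1 clone, and p-values measure the spread among these clones.

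ChIP libraries of unmodified and HA-H3.3 cells held 6.62 to 24.1 M reads, and no depth is known for those of knockdown and control cells. RNA libraries held an estimated 18.2 to 26.5 M fragments. H3f3a, 1 of the 2 mouse genes for H3.3, had 71.8, 35.6 and 5.05 FPKM in the knockdown clones, against 128.3 and 143.5 FPKM in the control clones. H3f3b, the other gene, had 144.4, 104.3 and 51.7 FPKM in the knockdown clones, against 249.4 and 237.1 FPKM in the control clones. All 10 fibroblast markers examined had a control mean of at least 1 FPKM. None of the 4 epithelial and none of the 4 neural markers did, and Epcam and Sox2 were listed at 0 in all 5 libraries. Some markers of other types were expressed, namely Acta1 and Des of 4 muscle markers, Cd68, Cd74 and Cd14 of 4 haematopoietic markers, Cdh5 and Tek of 4 endothelial markers and Nanog of 3 pluripotency markers, while Myod1 and Zfp42 were listed at 0. The fibroblast markers summed to 8238 to 9780 FPKM in the knockdown clones and 6597 to 7250 FPKM in the control clones. The muscle markers, the highest of the other lists, summed to 26.5 to 45.4 FPKM in the knockdown clones and 45.9 to 55.8 FPKM in the control clones. The part of other cell types in the results was not tested. Knockdown clone 1 stood apart from the other RNA libraries on the first principal component, which held 39.1% of the variance.

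Distal peaks were small and weak beside those in H3K4me3. Their median width was 223 bp, against 296 bp for H3K4me3-overlapped peaks. Their median score was 61.3, against 87.0 for H3K4me3-overlapped peaks, where the score is the authors' value per peak, starts at 50 and has the form of a scaled −log10 p. A score of at least 100 was reached by 1279 distal peaks (11.9%), against 6198 H3K4me3-overlapped peaks (41.7%). These lists and distances chose the members, so the differences are a description of the rule. Of the members, 5265 lay inside a gene locus and 5498 between loci, at a median of 22079 bp from the nearest gene end and 10959 bp from the nearest H3K4me3 peak.

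The edges of the rule cut through similar peaks. Just inside the distance limit, the member nearest to Crygn, a lens crystallin gene, lay 2001 bp from the gene end with a score of 58.2, and the one at Abcb9, a peptide transporter gene of lysosomes, lay 2002 bp away with a score of 60.3. Just outside it, at 2000 bp, were the peaks at Col6a1, a collagen VI chain gene, with a score of 81.0, and at Plin2, a lipid droplet coat gene, with a score of 109.4. At the H3K4me3 limit, 393 members (3.65%) lay within 200 bp of an H3K4me3 peak, with a median score of 67.9. Just past it, 43 peaks over 2 kb from gene ends had under 10% of their bases in an H3K4me3 peak, with a median score of 70.8.

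A second acetylation mark was rare on distal peaks. H3K9ac, which marks active promoters most strongly, had a peak on 822 of 10763 distal peaks, or 7.64% (95% exact interval 7.14 to 8.16). It had a peak on 13112 of 14861 H3K4me3-overlapped peaks, or 88.2% (87.7 to 88.7). H3K4me3-overlapped peaks that, like the members, lay more than 2 kb from gene ends held H3K9ac at 67.7% (66.3 to 69.0). Peaks without H3K4me3 within 2 kb of a gene end held it at 8.06% (6.45 to 9.92), an interval that takes in the distal share. These intervals, like all those given for shares, are Clopper-Pearson intervals that cover counting error only. Each mark had 1 library and neighbouring peaks are not independent, so no test between peak sets was made.

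HA-H3.3, which also had the largest list, was the readout found on distal peaks most often. The authors' table of regions lists places with a peak of HA-H3.3 or of a NuRD subunit, and 4841 distal peaks (45.0%, 44.0 to 45.9) touched such a region. HA-H3.3 peaks of both replicates were present in the region at 3870 distal peaks, or 36.0% (35.0 to 36.9), against 70.9% (70.2 to 71.6) of H3K4me3-overlapped peaks. Replicate 1 alone gave 36.6% of distal peaks and replicate 2 alone 43.3%. The 41569 regions with peaks of both replicates covered 65.1 Mb, against 39.6 Mb for RBBP4 regions and 25.7 Mb for H3K9ac peaks. H3K9ac was counted by direct overlap of peaks, and HA-H3.3 and the subunits by the listed region. The part of list size in this order was not tested. Among H3K4me3-overlapped peaks, those more than 2 kb from gene ends had the higher share, 78.7% (77.5 to 79.9).

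NuRD subunits were found at a minority of distal peaks, and RBBP4 made up most of that. At least 1 of the 6 subunits had a peak in the region of 2783 distal peaks, or 25.9% (25.0 to 26.7), against 12238 H3K4me3-overlapped peaks, or 82.3% (81.7 to 83.0). RBBP4, the histone-binding subunit, accounted for 2660 distal peaks (24.7%), against 79.3% of H3K4me3-overlapped peaks. The deacetylases followed, with HDAC2 at 1244 distal peaks (11.6%) against 53.8% of H3K4me3-overlapped peaks. HDAC1 lay at 476 distal peaks (4.42%) against 30.5% of H3K4me3-overlapped peaks. The least frequent were the scaffold MTA1 at 3.35% of distal peaks, MBD2/3 at 1.95% and the remodeller CHD4 at 1.74%. H3K4me3-overlapped peaks had MTA1 at 14.0%, MBD2/3 at 12.4% and CHD4 at 10.3%. The order of the subunits follows the size of each list, since the table had 25717 regions with an RBBP4 peak but 2017 with a CHD4 peak. Distal peaks and those without H3K4me3 near gene ends had intervals that overlapped for RBBP4, HDAC2, HDAC1, MTA1 and CHD4, but not for MBD2/3, at 1.95% (1.70 to 2.23) of distal peaks and 3.28% (2.27 to 4.58) of the others.

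**Figure D1:**
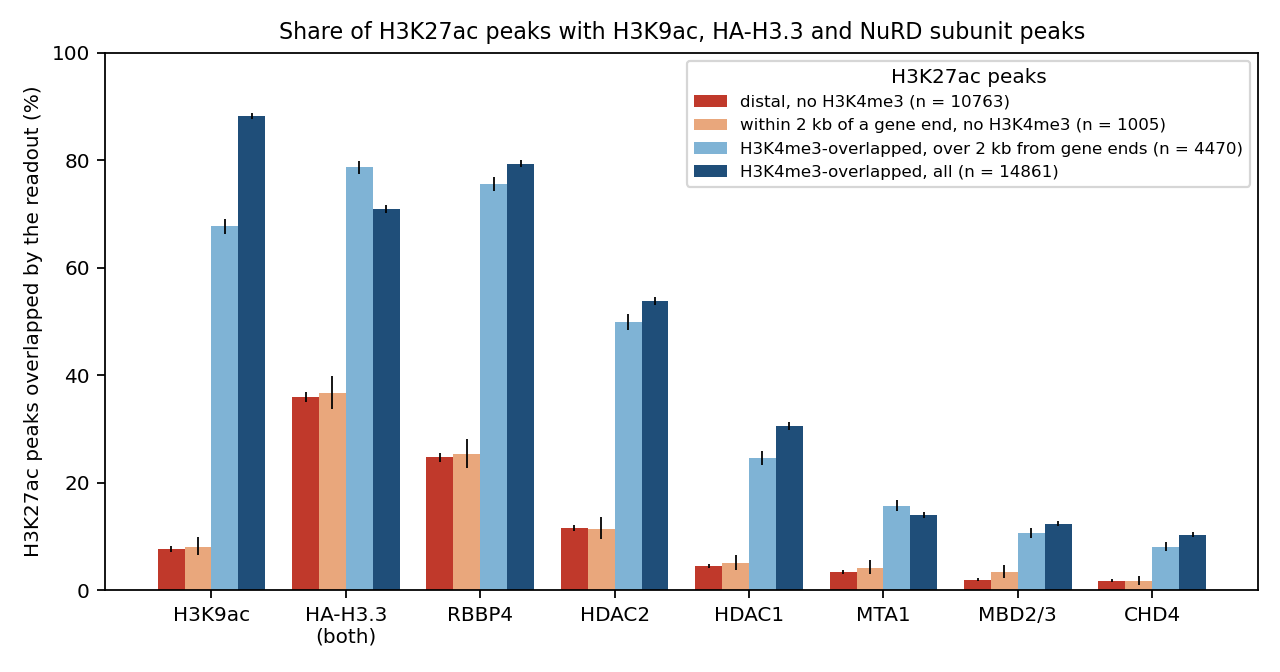
Share of H3K27ac peaks (vertical axis, percent) overlapped by a peak or region of each readout (horizontal axis), for distal peaks and 3 other sets of H3K27ac peaks. Bars are shares and lines are exact 95% intervals for counting error; distal peaks sit beside the peaks without H3K4me3 near gene ends (HA-H3.3 36.0% and 36.7%), and both lie below the H3K4me3-overlapped sets in each readout.

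Few distal peaks held several subunits together. No subunit was found at 7980 of them, 1 at 1367, 2 at 798, 3 at 380, 4 at 172, 5 at 49 and all 6 at 17. At least 4 subunits were found at 2.21% (1.94 to 2.51) of distal peaks, against 15.3% (14.8 to 15.9) of H3K4me3-overlapped peaks. Where a single subunit was found, it was RBBP4 in 1256 of 1367 cases (91.9%). RBBP4 also had the largest list of the 6, with 25717 regions against 2017 to 11095 for the others. The part of list size in this share was not tested. Most distal peaks with a subunit of enzyme activity also had RBBP4. RBBP4 was present at 95.8% of the distal peaks with HDAC2, 96.6% of those with HDAC1, 93.9% of those with MTA1, 90.9% of those with CHD4 and 83.8% of those with MBD2/3. In the other direction, 44.8% of the distal peaks with RBBP4 had HDAC2.

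H3.3 and RBBP4 were often in the same region. Of the 2660 distal peaks with RBBP4, 2453 (92.2%) had HA-H3.3 peaks of both replicates. Joint regions were also common elsewhere, at 9663 of the 11791 H3K4me3-overlapped peaks with RBBP4. Of all 25717 listed regions with RBBP4, 17477 had HA-H3.3 peaks of both replicates. Of the 2181 distal peaks in a listed region without RBBP4, 1417 (65.0%) had HA-H3.3 peaks of both replicates. Every such region holds at least 1 peak of HA-H3.3 or of another subunit by the way the table was made. The 2 quantities share that table and its region lengths, and no test was made. Regions were wider than the peaks, with a median of 1381 bp for those that held a distal peak and no H3K4me3 peak, so an overlap places 2 peaks in 1 region and not at 1 nucleosome.

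H3K9ac, HA-H3.3 and each of the 6 subunits in unmodified cells became more frequent on distal peaks with the H3K27ac score. H3K9ac was on 3.75% (3.24 to 4.32) of distal peaks scored 50 to 60, on 21.6% (19.2 to 24.1) of those scored 100 to 200 and on 50.9% (42.9 to 58.9) of the 159 scored 200 or more. For HA-H3.3 of both replicates the same classes gave 27.2% (26.0 to 28.4), 59.9% (57.0 to 62.8) and 79.2% (72.1 to 85.3). In the top class H3K4me3-overlapped peaks had 79.2% (77.3 to 81.1), inside the interval of the distal peaks. The same held for MTA1, at 20.1% (14.2 to 27.2) of distal peaks in that class against 20.9% (19.0 to 22.9) of H3K4me3-overlapped ones. H3K9ac and the other subunits stayed lower there, with RBBP4 at 69.8% (62.0 to 76.8) of distal peaks scored 200 or more, against 92.4% (91.1 to 93.6) of H3K4me3-overlapped ones. HDAC2 was at 45.3% (37.4 to 53.4) of distal peaks in that class, against 70.8% (68.6 to 72.9) of H3K4me3-overlapped ones. Of these readouts H3K9ac showed the widest gap there, at 50.9% of distal peaks against 99.3% of H3K4me3-overlapped ones.

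**Figure D2:**
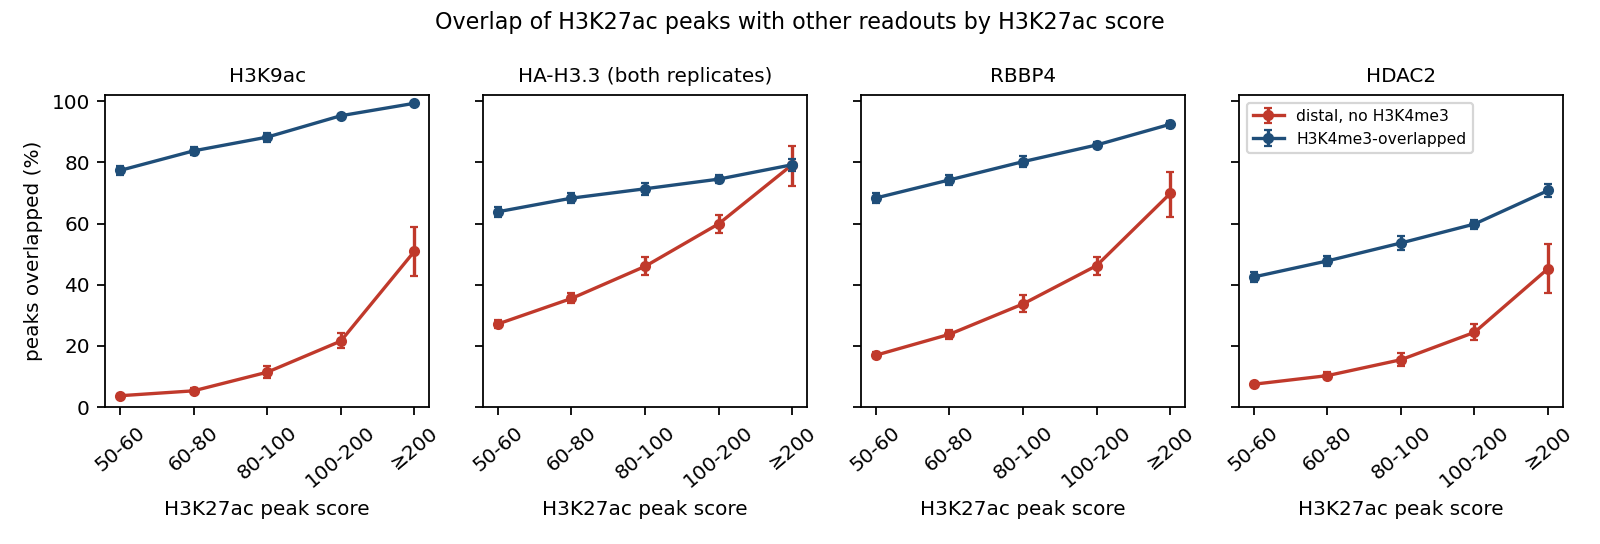
Share of H3K27ac peaks (vertical axis, percent) overlapped by H3K9ac, HA-H3.3 of both replicates, RBBP4 and HDAC2, by class of H3K27ac score (horizontal axis), for distal and H3K4me3-overlapped peaks. Points are shares with exact 95% intervals for counting error; the HA-H3.3 curves meet at 79.2% in the class of 200 or more and the other curves stay apart.

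Read levels are available only within the listed regions. The 3916 regions with a distal peak included 681 that also touched an H3K4me3 peak elsewhere along their length. The other 3235 are compared here with 9822 regions that held H3K27ac and H3K4me3 peaks and 54911 that held neither mark. The 681 are counted among the 9822, so the set with both marks includes regions with a distal peak. Levels are RPKM, reads scaled to region length and library size, given as medians over regions. HA-H3.3 reached 3.34 and 3.83 RPKM in replicates 1 and 2 in distal regions, against 3.89 and 3.86 RPKM in regions with both marks. In regions with neither mark it was 2.24 and 2.95 RPKM. The 681 regions had medians of 6.50 and 5.82 RPKM, above those of the 3235 and of all 9822. The way regions were listed bears on these HA-H3.3 levels. Of the 4841 distal peaks in a listed region, 96.3% had an HA-H3.3 replicate 2 peak there, against 85.8% of the 13110 H3K4me3-overlapped peaks in one. For replicate 1 these shares were 81.5% and 83.0%, so the excess in distal peaks was seen in replicate 2 only. The other distal peaks, which have no listed region, have no level, so the nearness of the HA-H3.3 medians is a property of the listed regions and is not a result about all distal peaks.

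RBBP4 and the deacetylases stood between the other region sets. RBBP4 had 1.99 RPKM in distal regions, against 3.58 RPKM with both marks and 1.16 RPKM with neither. HDAC2 had 1.52 RPKM in distal regions, against 2.73 RPKM with both marks and 0.991 RPKM with neither. HDAC1 had 1.26 RPKM in distal regions, against 2.03 RPKM with both marks and 0.902 RPKM with neither. CHD4, MBD2/3 and MTA1 lay close together in distal regions at 1.14, 1.14 and 1.17 RPKM. They had 1.49, 1.46 and 1.48 RPKM with both marks and 0.858, 0.855 and 0.863 RPKM with neither. Their distal medians rest on 12 to 18 reads per region, so a single region's level carries a large counting error. For H3K9ac, the distal median of 1.02 RPKM was 0.308 times that of regions with both marks and 1.55 times that of regions with neither. For H3K27ac, which chose the regions, the distal median was 0.911 times that of regions with both marks.

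**Figure D3:**
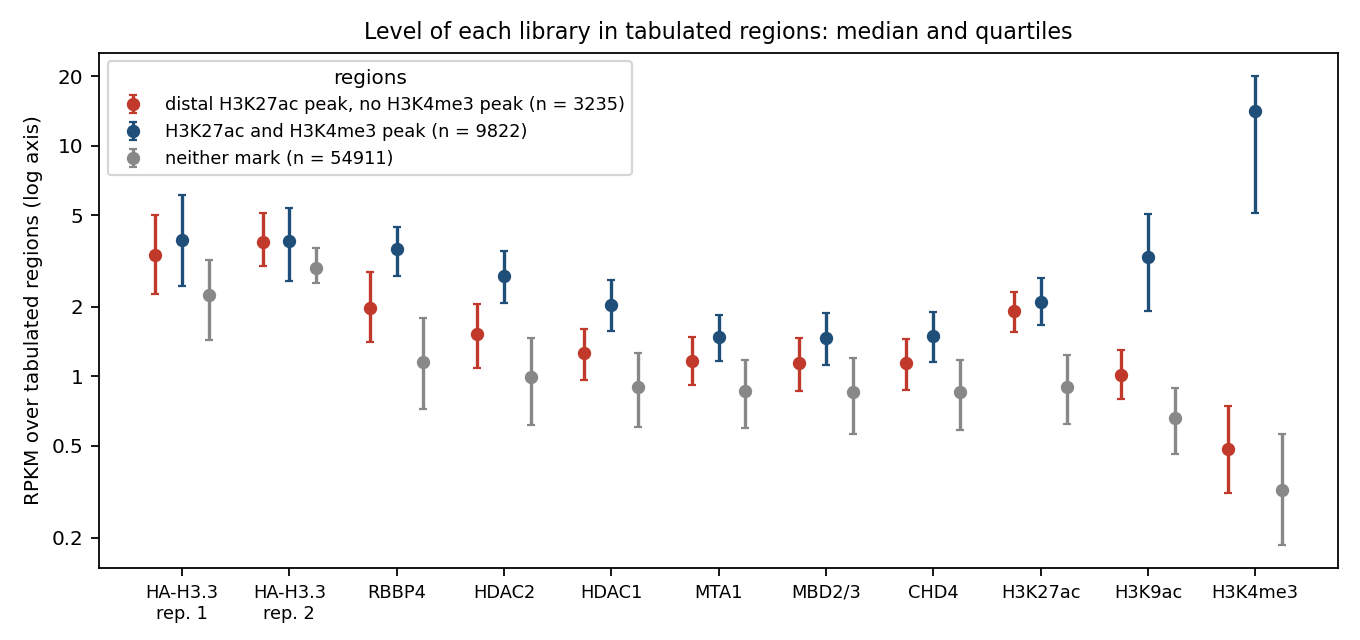
Level of each library (vertical axis, RPKM, log scale) over listed regions with a distal H3K27ac peak and no H3K4me3 peak, regions with H3K27ac and H3K4me3 peaks, and regions with neither mark. The set with both marks includes 681 regions that also hold a distal peak. Points are medians and lines span the quartiles over regions. RBBP4 in distal regions (1.99 RPKM) lies between the other sets. HA-H3.3 (3.34 and 3.83 RPKM in replicates 1 and 2) was among the readouts by which regions were listed. Of the distal peaks in listed regions, 81.5% had a replicate 1 peak and 96.3% a replicate 2 peak. Of the H3K4me3-overlapped peaks in listed regions, 83.0% and 85.8% did.

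Across the 3235 distal regions the HA-H3.3 replicates followed each other with a Pearson r of 0.80. The mean HA-H3.3 level was weakly related to RBBP4 (r = 0.33) and HDAC2 (r = 0.33), and its r with H3K27ac was −0.12. H3K27ac had an r of 0.62 with H3K9ac. These are descriptions over regions that share region length, sequence content and, for most pairs, the same low depth. The authors' annotation placed an intron feature in 1678 of these regions (51.9%) and no listed feature in 1388 (42.9%). The class up to 3 kb upstream of genes was listed for 55 of them (1.70%), against 37.3% of the regions with both marks. The rule itself uses gene distance, and its part in that difference was not tested.

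The strongest distal peaks lay at genes of several kinds. The highest score, 556.9, belonged to a 1539 bp peak at chr15:101202601-101204139, 2044 bp from Krt80, a type II keratin gene. Its region had 1.87 and 3.76 RPKM of HA-H3.3 in the 2 replicates, 2.15 RPKM of RBBP4, 4.39 RPKM of H3K27ac and 0.206 RPKM of H3K4me3, and peaks of H3K9ac, HA-H3.3 replicate 2 and RBBP4 were found there, with none of the other subunits. The next was inside Rcan2, a regulator of calcineurin, at chr17:44167256-44168117 with a score of 477.4. That region had HA-H3.3 peaks of both replicates (2.92 and 4.44 RPKM) and no subunit peak. The peak inside Vwa8, at chr14:79466617-79467398 with a score of 474.8, touched no listed region, so no level is available for it here.

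Others of the 10 highest scores carried more subunits. The peak at chr6:127822407-127823241, with a score of 393.2 and 14398 bp from Tspan11, a tetraspanin gene, had RBBP4, HDAC2, HDAC1 and MTA1 peaks in its region. The levels there were 8.78 and 6.09 RPKM of HA-H3.3, 4.95 RPKM of RBBP4 and 3.38 RPKM of HDAC2. The peak inside Ttc39b at chr4:82953647-82954959, with a score of 392.2, had RBBP4 at 5.40 RPKM and HDAC2 at 4.23 RPKM, both with a peak. Bnc2, a zinc finger gene, was nearest to a 1849 bp peak at chr4:83849853-83851701 with a score of 415.6, where HA-H3.3 was at 3.37 and 6.31 RPKM and RBBP4 was the only subunit with a peak. Inside Adamts12, a secreted metalloprotease gene, a peak with a score of 431.6 had HA-H3.3 at 3.67 and 3.91 RPKM and neither a subunit nor an H3K9ac peak. Inside Snx29, a sorting nexin gene, a peak with a score of 459.7 had HA-H3.3 at 8.11 and 6.00 RPKM, with RBBP4 and HDAC2 peaks. H3K9ac peaks were on all of the 10 except those at Bnc2 and Adamts12.

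The best-scored members with at least 4 subunits added a pair of loci. Inside Rbks, the ribokinase gene, a peak at chr5:31930281-31930985 lay in a 7054 bp region with peaks of 5 subunits, CHD4 included, and HA-H3.3 levels of 5.05 and 5.62 RPKM. Near Sparc, which encodes a secreted matrix glycoprotein abundant in fibroblasts, a peak at chr11:55238280-55239055 lay 4697 bp from the gene with RBBP4, HDAC2, MTA1 and MBD2/3 peaks. HA-H3.3 stood at 9.38 and 6.90 RPKM in that region. Sparc had 1314, 1046 and 1051 FPKM in the knockdown clones, against 503.6 and 657.0 FPKM in the control clones. All 3 knockdown clones lay above both control clones, as they did for 11.4% of all genes tested. Its log2 difference of 0.97 (SE 0.22) had an adjusted p of 0.428 by limma, so it did not pass the test.

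Many distal peaks stood alone, and the grouped ones carried more of each readout. Joining members less than 12.5 kb apart gave 6302 groups, of which 4362 held a single peak and 50 held 10 or more. H3K9ac was on 2.93% of single peaks and on 19.6% of the 792 peaks in groups of 10 or more. HA-H3.3 of both replicates was at 26.5% of single peaks and 52.4% of those in groups of 10 or more. RBBP4 was at 15.4% of single peaks and 42.4% of those in groups of 10 or more, and HDAC2 at 5.14% and 23.9%. The median score also differed, at 58.1 for single peaks and 74.2 in the largest groups, so score and grouping were not separated here.

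The group with the most peaks, 43 over 80.1 kb at chr2:167527962-167608070, lay between 2 expressed genes. Cebpb, a transcription factor of fat cell and inflammatory programmes, lay 12029 bp to 1 side, and Ptpn1, a protein tyrosine phosphatase gene, lay 149756 bp to the other. Within the group, 23 peaks had HA-H3.3 of both replicates, 17 had H3K9ac, 12 had RBBP4 and 9 had HDAC2. Cebpb had 150.9, 149.4 and 63.9 FPKM in the knockdown clones, against 106.0 and 145.0 FPKM in the control clones, which overlap. Ptpn1 had 18.0, 18.0 and 13.2 FPKM in the knockdown clones, against 21.7 and 22.6 FPKM in the control clones. Its log2 difference of −0.42 (SE 0.21) had an adjusted p of 0.521 by limma.

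A stretch of chromosome 17 held 3 of the 10 largest groups. They spanned 62.0, 54.5 and 93.2 kb from chr17:84272406-84334436 to chr17:84426459-84519677 and held 23, 27 and 30 peaks, of which 16, 15 and 14 had RBBP4. The loci named nearest, Haao, an enzyme gene of tryptophan breakdown, and 4933433H22Rik, were at or below 0.111 FPKM in all 5 RNA libraries. The nearest expressed genes on each side were Mta3, itself a NuRD subunit gene, and Zfp36l2, an RNA-binding protein that promotes messenger RNA decay. Mta3 had 21.1, 21.3 and 23.1 FPKM in the knockdown clones, against 18.0 and 19.4 FPKM in the control clones. Zfp36l2 had 122.1, 158.2 and 104.8 FPKM in the knockdown clones, against 168.8 and 185.1 FPKM in the control clones. Neither passed the test, with adjusted p of 0.636 for Mta3 and 0.531 for Zfp36l2 by limma.

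Tns4 and Glis1, at other large groups, differed widely among clones of 1 condition. At Tns4, a tensin gene, 29 peaks spanned 42.7 kb at chr11:98929425-98972109, with HA-H3.3 of both replicates at 19 and RBBP4 at 16. Tns4 had 0.996, 1.70 and 1.31 FPKM in the knockdown clones, against 1.81 and 8.27 FPKM in the control clones, and the neighbour Igfbp4, a binding protein of insulin-like growth factors, had 25.6, 19.6 and 11.2 against 4.77 and 131.5 FPKM. At Glis1, a zinc finger gene, 18 peaks spanned 40.4 kb at chr4:107158756-107199141. Glis1 had 36.8, 15.8 and 5.86 FPKM in the knockdown clones, against 8.30 and 10.8 FPKM in the control clones. The knockdown clones thus lay on both sides of the control clones. Gramd4, at 22 peaks over 71.3 kb, varied less, with 14.1, 16.3 and 16.0 FPKM in the knockdown clones, against 16.5 and 19.8 FPKM in the control clones.

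Among the genes nearest to the named peaks and groups, the gene at the strongest peak had the largest log2 difference. Krt80 was nearest to 25 distal peaks, and the group at chr15:101195634-101220782 held 19 peaks, with HA-H3.3 of both replicates at 10 and RBBP4 at 12. Krt80 had 1.53, 3.47 and 3.11 FPKM in the knockdown clones, against 15.2 and 14.4 FPKM in the control clones. All 3 knockdown clones lay below both control clones, as they did for 21.2% of all genes tested. The log2 difference was −2.14 (SE 0.29), with an unadjusted p of 0.000547 and an adjusted p of 0.280 by limma, so it did not pass the test over all genes.

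**Figure D4:**
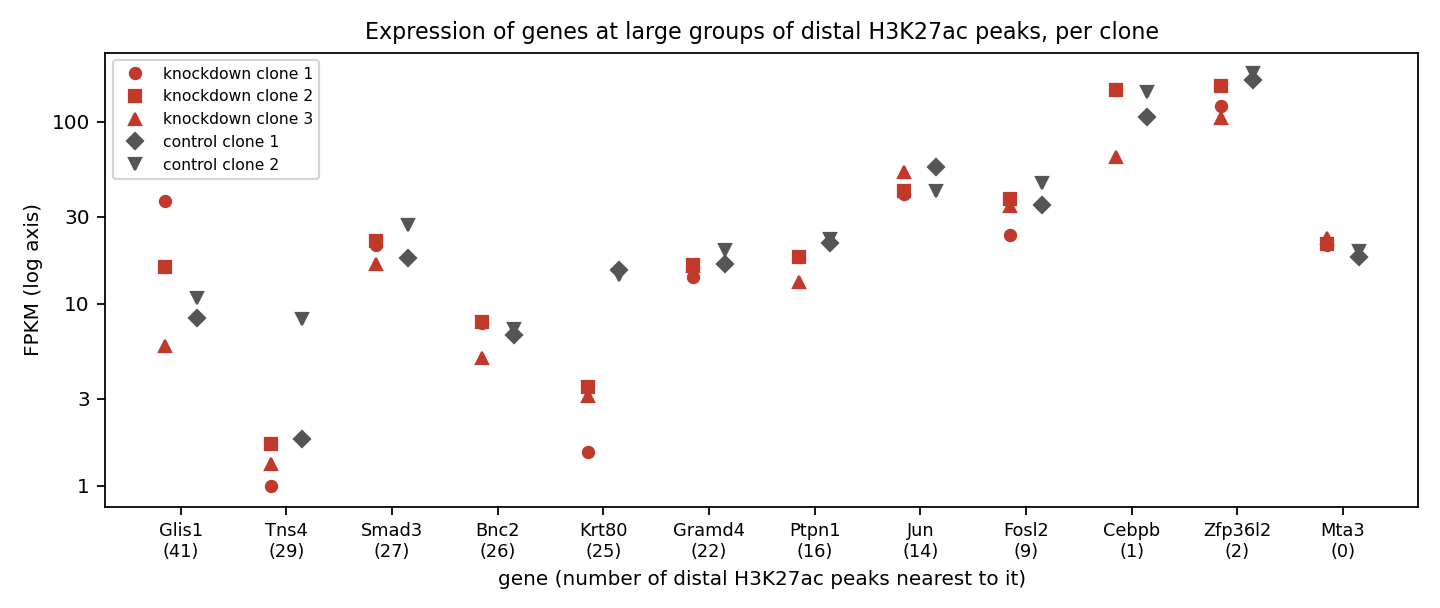
FPKM (vertical axis, log scale) in each knockdown clone and each control clone of genes at or near large groups of distal H3K27ac peaks and of 3 factors with 9 or more nearest peaks; the number under each gene counts the distal peaks nearest to it. Each point is 1 clone; Krt80 is at 1.53 to 3.47 FPKM in the knockdown clones, and at Glis1 the knockdown clones lie on both sides of the control clones.

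One stretch was unlike the rest. Inside Sfi1, a gene for a centrin-binding protein of the centrosome, 8 members of 1591 to 6848 bp lay in chr11:3035934-3083051. Most of them belonged to the group with the most bases of H3K27ac peaks, 26740 bp in 9 peaks at chr11:3026828-3065058. That group also reached Pisd-ps1 and Pisd-ps3. The median levels of the 5 regions in the Sfi1 stretch were 21.2 and 22.9 RPKM of HA-H3.3, 20.3 RPKM of RBBP4, 16.5 RPKM of CHD4 and 15.4 RPKM of MTA1. All libraries except H3K4me3, at 6.21 RPKM, were at 14.1 RPKM or more, far above the medians of distal regions. Whether the stretch is high in the input libraries was not analysed here, and copy number or repeated sequence as a source was not tested.

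The knockdown and control lists reached few distal peaks. RBBP4 peaks touched 12 members in the knockdown list and 8 in the control list, and 3 members were in both. All 3 lay inside Sfi1, as did 8 of the 12 knockdown and 3 of the 8 control members. Outside Sfi1, that left 4 members with a knockdown RBBP4 peak and 5 with a control RBBP4 peak, with none shared. As shares, 0.111% (0.0576 to 0.195) of distal peaks had a knockdown peak and 0.0743% (0.0321 to 0.146) a control peak, so the intervals overlapped. H3K4me3-overlapped peaks had 1029 (6.92%) in the knockdown list and 1102 (7.42%) in the control list, with 532 in both. The knockdown list had 2919 peaks of a median 191 bp and the control list 3561 of a median 221 bp, counted by direct overlap. The RBBP4 share of unmodified cells, 24.7%, counted any of 25717 listed regions of a median 1270 bp. The shares here therefore cannot be set beside it.

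MTA1 touched 22 members in the knockdown list and 8 in the control list, and none in both. The shares were 0.204% (0.128 to 0.309) with a knockdown peak and 0.0743% (0.0321 to 0.146) with a control peak, so the intervals overlapped. H3K4me3-overlapped peaks also had more in the knockdown list, 456 (3.07%), than in the control list, 196 (1.32%), with 66 in both. None of the 22 knockdown members lay inside Sfi1, against 4 of the 8 control members. The lists themselves differ in kind, with 904 peaks of a median 861.5 bp covering 0.873 Mb in the knockdown list and 1703 peaks of a shorter median width covering 0.343 Mb in the control list. The depths are unknown and each list is 1 library, so no test was made and the part of peak width in the count was not tested. The 22 included the strong peak inside Osbp2, an oxysterol-binding protein gene (score 446.3), 3 neighbouring members inside Tmprss6, a membrane serine protease gene, and 1 member whose nearest gene, Klf4, lay 183808 bp away. The 3 Tmprss6 members lay under 1 MTA1 peak of score 150.8.

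The sequential precipitation of FLAG-H3.3 and RBBP4 had 6 peaks in all and touched 0 of 10763 distal peaks. A count of 0 allows a share of up to 0.0279% when taken as 3 counts of 10763, and the Clopper-Pearson interval used for the other shares ends at 0.0343%. It touched 1 of 14861 H3K4me3-overlapped peaks. At this number of peaks, joint occupancy of distal peaks by H3.3 and RBBP4 was not detectable, and the overlap of the separate libraries is the measure available.

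Distal peaks, like H3K4me3-overlapped H3K27ac peaks, were unevenly spread over chromosomes. Chromosome 11 held 1143 distal peaks (10.6%), chromosome 4 held 1054 (9.79%) and chromosome 6 held 958 (8.90%). The same chromosomes held 1593, 1152 and 1019 H3K4me3-overlapped peaks. Distal peaks made up 41.8%, 47.8% and 48.5% of both sets together there. Among autosomes this share ran from 30.4% on chromosome 7 to 49.0% on chromosome 16. High counts on these chromosomes were thus not particular to distal peaks. Chromosome X held 7 (0.0650%), against 73 H3K4me3-overlapped H3K27ac peaks on the same chromosome. The X still had 739 H3K4me3 peaks and 323 H3K9ac peaks. Per 100 H3K4me3 peaks it had 0.947 distal peaks and 9.88 H3K4me3-overlapped peaks, against 17.3 and 27.3 on chromosome 13, the autosome with the lowest ratios. Copy number of the chromosomes and gene density were not tested.

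Genes near distal peaks were expressed more often than others. Taking the nearest locus within 100 kb, 9983 members (92.8%) were placed at 3880 genes, with a median of 1 member per gene and at most 49. In the 5 RNA libraries 62.3% to 64.7% of these genes had an FPKM of at least 1, against 44.2% to 45.3% of the 20071 genes with no member nearest. The share grew with the number of members, to 75.4% to 79.4% of the 126 genes with 10 or more. Nearest locus is a place on the map, and longer loci have more room for members, which was not tested.

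No gene near a distal peak passed the test of knockdown against control. Of the 3880 genes with a nearest member, 2490 had the mean FPKM of at least 1 needed for the test, and 0 of these had an adjusted p under 0.05 by limma, with a background of 0.0341% of all 11728 genes, or 4 genes, each a short RNA gene. At an unadjusted p under 0.05, 71 of the 2490 were higher (2.85%) and 218 lower (8.76%) in the knockdown clones. Over all tested genes these shares were 3.50% higher and 6.31% lower. Without knockdown clone 2, 1 gene with a member, a short RNA gene, passed the adjusted test. Over all genes 14 passed in that setting, 13 of them short RNA genes. With all clones, 65.5% of the differences of genes with a member and 59.9% of all differences lay below 0.

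Genes with nearest members had a lower median difference than genes with none, in each of the 3 knockdown clones. The median log2 difference, knockdown minus control, was −0.17 over the 2490 genes and −0.098 over all genes. It was −0.082 for genes with no member, −0.14 with 1, −0.20 with 2 to 4, −0.16 with 5 to 9 and −0.20 for the 97 tested genes with 10 or more. In this last class the medians of knockdown clones 1 to 3 against the control mean were −0.25, −0.19 and −0.20, and those of control clones 1 and 2 were −0.063 and 0.063. Control clone 1 thus lay below control clone 2 in this class, while among genes with no member it lay above it, at 0.0082 and −0.0082. After quantile normalization the median was −0.071 with a member and −0.0065 over all genes, and without a filter it was −0.041 and −0.011. With control clone 2 left out it was −0.12 with a member and −0.095 over all genes, so the 2 medians lay closer. With control clone 1 left out it was −0.20 and −0.091. No test over genes was made.

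**Figure D5:**
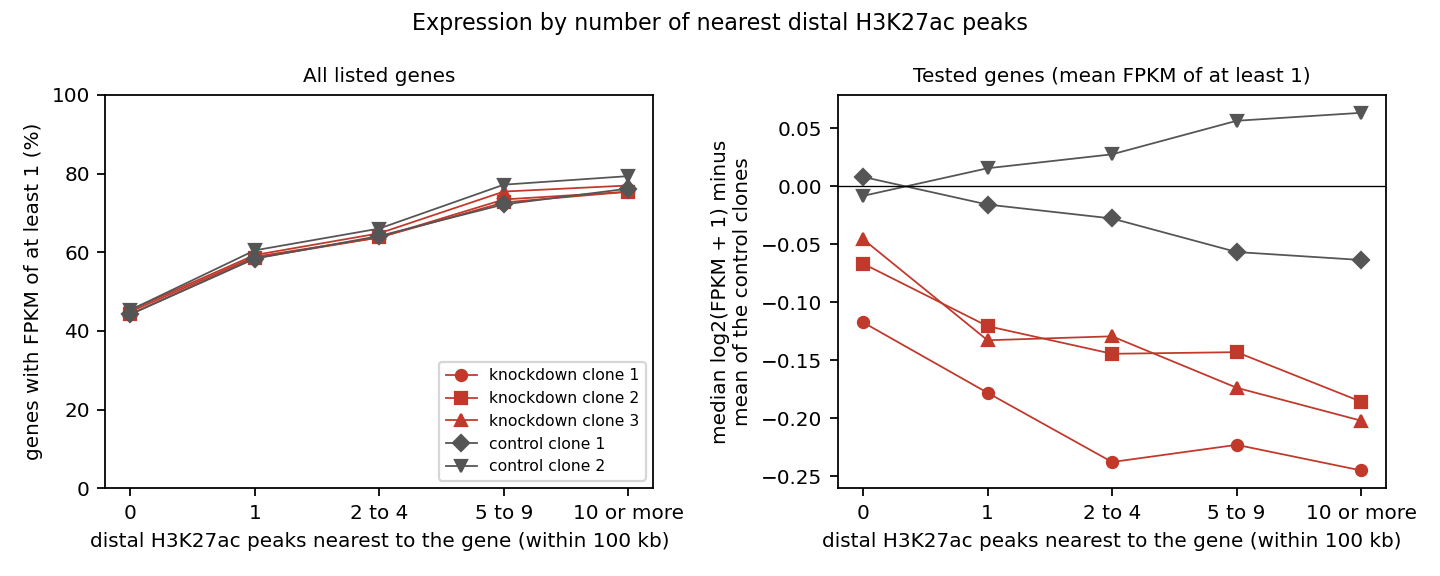
Left, share of listed genes with an FPKM of at least 1 (vertical axis, percent) by the number of distal H3K27ac peaks nearest to the gene (horizontal axis), for each knockdown and control clone. Right, median over tested genes of log2(FPKM + 1) minus the mean of the control clones; the knockdown clones lie between −0.25 and −0.045 and the control clones within 0.063 of 0.

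The 5 genes with the smallest p among those lower in knockdown clones were Itgb1, Cdh5, Brinp1, Slc14a1 and Krt80. Itgb1, the integrin beta 1 chain by which fibroblasts hold on to matrix, had 51.6, 47.8 and 32.9 FPKM in the knockdown clones, against 151.3 and 140.1 FPKM in the control clones (log2 difference −1.73, SE 0.25, adjusted p 0.307 by limma). Cdh5, the cadherin of endothelial junctions, had 0.190, 0.170 and 0.495 FPKM in the knockdown clones, against 3.78 and 6.89 FPKM in the control clones. The knockdown and control clones of both genes did not overlap, and Cdh5, with 5 nearest members, had an adjusted p of 0.280 by limma. Every knockdown clone lay below both control clones for 21.2% of all genes tested. Picking genes by small p favours clones that do not overlap. Brinp1, best known from neurons, had 1.97, 2.05 and 1.97 FPKM in the knockdown clones, against 8.14 and 6.49 FPKM in the control clones. Slc14a1, a urea transporter gene, had 0.518, 0.536 and 0.112 FPKM in the knockdown clones, against 5.31 and 12.9 FPKM in the control clones. Krt80, described above, is the fifth, and none of the 5 passed the test.

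Among those higher in knockdown clones, Cacna1a, a subunit of a voltage-gated calcium channel, had the smallest p. It had 12.0, 10.2 and 14.4 FPKM in the knockdown clones, against 3.50 and 2.91 FPKM in the control clones (log2 difference 1.64, SE 0.21, adjusted p 0.238 by limma). Anapc13, a subunit of the complex that marks mitotic proteins for breakdown, had 200.5, 122.7 and 155.5 FPKM in the knockdown clones, against 60.6 and 53.7 FPKM in the control clones. Groups did not overlap in either gene, which were also picked by small p. Every knockdown clone lay above both control clones for 11.4% of all genes tested. Lyrm4, a factor of iron-sulphur cluster assembly, Fam13c and the ribosomal protein gene Rpl34 had log2 differences of 1.23, 1.25 and 1.25, each with an adjusted p of 0.401 by limma. Reads of Rpl34 may be shared with its processed copies.

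Of the genes for proteins that build, read and bind enhancers, none of those tested passed. Of 64 names in 9 lists, 62 were in the tables and 60 were tested, the untested ones being Runx3, at 0.258 FPKM or less, and Tcf21, at 0 in 4 of 5 libraries. The 60 had 26 higher, 34 lower and 0 past the adjusted threshold by limma, and 3 of the 60 had an unadjusted p under 0.05, against 9.81% of all genes tested. Their median log2 difference was −0.043, against −0.098 for all genes tested. The acetyltransferases and readers, such as Ep300 and Crebbp, had 4 of 6 higher with a median of 0.10. The histone deacetylases Hdac1, Hdac2 and Hdac3 had 2 of 3 higher with a median of 0.017, and the tested genes of H3K4 methylation and demethylation had 3 of 5 higher. Mediator and cohesin genes had 3 of 7 higher, and genes of the BAF remodeller had 2 of 6 higher.

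Factors that bind enhancers in fibroblasts often had distal peaks near them. In the lists of AP-1, TEAD, RUNX and other factors, 4 of 8, 3 of 6, 4 of 4 and 10 of 17 genes were nearest to at least 1 member, against 16.2% of all listed genes. Genes of the BAF remodeller had 4 of 6, and the acetyltransferases and readers 2 of 6. The lists of H3K4 methylation, deacetylases, and Mediator and cohesin had 0 of 5, 0 of 3 and 0 of 7. Among tested genes, 2490 of 11728 had a nearest member, and the part of expression in these shares was not tested. Smad3, which carries TGF-beta signals to the nucleus, was nearest to 27 members and had 21.0, 22.2 and 16.5 FPKM in the knockdown clones, against 17.9 and 27.0 FPKM in the control clones. Jun, the core AP-1 subunit, was nearest to 14 and had 40.3, 41.6 and 52.8 FPKM in the knockdown clones, against 56.3 and 41.9 FPKM in the control clones. Groups of clones overlapped for both. AP-1 genes had 6 of 8 lower with a median of −0.23, TEAD factors and coactivators 5 of 6 lower with a median of −0.18, RUNX genes 2 of 3 lower with a median of −0.036, and the other factors 8 of 16 lower with a median of −0.0089. These counts stand beside 59.9% lower and a median of −0.098 over all genes tested.

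Of the 60 tested list genes, every knockdown clone lay above both control clones in 13 and below both in 6, against 11.4% and 21.2% of all genes tested. Among the factors, the genes above were Jund, Runx2, Nfia, Nfib, Nfic, Prrx1 and Klf4, and those below were Twist2, Tead4 and Ets1. Prrx1, a homeobox factor of mesenchyme, had 112.4, 134.5 and 96.0 FPKM in the knockdown clones, against 86.9 and 79.5 FPKM in the control clones. Nfib, a nuclear factor I gene with 5 nearest members, had 49.0, 32.4 and 38.7 FPKM in the knockdown clones, against 30.8 and 27.4 FPKM in the control clones. Twist2, a mesenchymal factor with 6 nearest members, had 32.3, 39.9 and 26.1 FPKM in the knockdown clones, against 66.0 and 77.9 FPKM in the control clones. Its log2 difference was −1.13 (SE 0.24), with an adjusted p of 0.417 by limma. Tead4, a partner of the YAP and TAZ coactivators with 3 nearest members, had 3.47, 8.32 and 7.13 FPKM in the knockdown clones, against 17.5 and 12.2 FPKM in the control clones. Its log2 difference was −1.16 (SE 0.37), with an adjusted p of 0.469 by limma. None of these genes passed the test.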

How the data were processed

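Bowtie, bedtools, TopHat, Cufflinks, Cuffdiff and MACS2 and the build mm9 are named, without role or version, in the submitters' processing notes. Peak lists were deposited with 1 score per peak. The table of levels, deposited by the authors as RPKM per the file headers, holds log2(RPKM + 1); read so, 100% of values gave whole reads within 0.05. A second deposited table gives the fraction of each region covered by each library's peaks. FPKM per gene were deposited per RNA library, and strand is not given in the sources used here. The sequential list gives pileup signal, −log10 p and fold enrichment from MACS2 per the file headers, and only its positions were used.

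Overlap meant 1 bp or more, with exact 95% Clopper-Pearson intervals (scipy 1.17.1). Each member was given the nearest gene locus within 100 kb. Entries of a gene symbol were summed, and genes whose mean FPKM reached 1 were compared on log2(FPKM + 1) with limma 3.58.1 (R 4.3.3; lmFit, eBayes with trend, two-sided, Benjamini-Hochberg over all genes tested, threshold 0.05); fold changes are on that scale and understate low genes. Fragments were estimated from the FPKM confidence bounds. The tests were tested on simulated data.

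Members, gene lists and alternatives were chosen with earlier results of these data known. Named were the 10 highest scores and 10 largest groups, up to 5 members with at least 4 subunits and up to 5 with RBBP4 peaks in both conditions, the 5 higher and 5 lower genes of smallest p, and list members. Crygn, Abcb9, Col6a1 and Plin2, Osbp2, Tmprss6 and Klf4 as MTA1 sites, and Twist2, Tead4, Prrx1, Nfib and the other factors named for clones that do not overlap, were picked after their values were seen. Region sequences and motifs, and input libraries, were not analysed here.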

Additional observations from a re-analysis of the deposited data

How the results depend on the processing

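Shares followed the strength of the peaks. With members scored at least 100 there were 1279 distal peaks, and the shares became 25.3% for H3K9ac, 73.3% for any listed region, 62.3% for HA-H3.3, 51.7% for at least 1 subunit, 0.547% and 0.313% for knockdown and control RBBP4 and 0.469% and 0.391% for knockdown and control MTA1, with a median HA-H3.3 level of 4.74 RPKM. Other lists cut at 100 gave 3.16% for H3K9ac, 0.0372% and 0.0279% for knockdown and control RBBP4 and 0.0279% and 0.00929% for knockdown and control MTA1. Requiring cover of most of the peak (50% or more) gave 6.90% for H3K9ac, 42.0% for any listed region, 34.1% for HA-H3.3, 24.1% for at least 1 subunit and 0.0465% for knockdown RBBP4. Members with under 50% of their bases in H3K4me3 peaks gave 8.33% for H3K9ac and 26.9% for at least 1 subunit. A distance of 5 kb moved none of these results beyond its interval. Single HA-H3.3 replicates gave 36.6% to 43.3% and levels of 3.75 to 4.12 RPKM. In alternatives chosen after seeing the data, leaving out Sfi1 gave 0.0372% for knockdown RBBP4, and regions free of H3K4me3 gave 3.58 RPKM of HA-H3.3, against 3.94 RPKM over all 3916 regions.

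The median log2 difference of genes with a member was −0.041 without a filter and −0.071 after quantile normalization, where all genes had −0.0065. With 1 clone left out it was −0.20 to −0.12, where all genes had −0.11 to −0.077. Genes past the test numbered 0 to 1 with a member and 8 to 30 in all with 1 clone left out. The single genes were Ccl2 without control clone 1, Mir5135 without control clone 2 and Mir331 without knockdown clone 2, named after their values were seen; without control clone 1 the lone control is taken to vary like the knockdown clones. Over all genes, 0 passed with short RNA genes left out, an alternative added after seeing the data. Clone numbers label separate clones and state no pairing. Deviations of same-numbered clones had r of −0.25 and −0.095. These values cannot decide on a pairing, since the deviations of 2 control clones mirror each other. With the number as a replicate block, knockdown clone 3 has no partner. In that fit 0 genes passed over all genes and 0 with a member, at a median of −0.17. None of the 10 genes named for small p passed in any of the 11 alternatives that tested it. Counting error limits single regions, and 1 library per mark leaves its variation unmeasured.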
